A study of Mus musculus with 12 samples.

Results

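Mouse MODE-K cells taken 24 h after 12 Gy of gamma rays were compared with unirradiated cells taken at 0 h, across all genes. The comparison uses 6 of the 12 libraries of the series, 3 in each group, chosen by their labels alone. MODE-K is a line derived from small intestinal epithelium and immortalised with a viral large T antigen. All 4 groups of the series share the Wild Type genotype, the cell line and the growth medium. The control group received 0 Gy and was collected at 0 h. The irradiated group received 12 Gy from a 60Co source and was collected at 24 h. The other groups were collected at 48 h after 4 Gy or 12 Gy. No unirradiated library was taken at 24 h, so the dose and the time in culture cannot be told apart. The labels speak of parallel groups and do not say whether these were separate cultures. Each p-value sets the difference between group means against the spread among libraries within groups, estimated from all 12 libraries. That spread could be technical.

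Gamma rays break DNA and form reactive oxygen species in cells. In most epithelial cells the breaks activate the kinases ATM and ATR and the transcription factor p53, which drives genes for cell cycle arrest, repair and apoptosis. NRF2 drives antioxidant genes, HIF1A drives genes for glycolysis and for low oxygen, and DNA or RNA in the cytosol can switch on interferon-stimulated genes. The series title concerns pyroptosis, a lytic death in which caspases cut gasdermins. Small intestinal epithelium is known for fast renewal and for its sensitivity to radiation.

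The labelled cell type was checked against marker genes. The epithelial markers Epcam, Cdh1, Cldn3, Cldn4, Cldn7, Ocln and Dsp had 0 reads in all 6 libraries, as did 7 of 14 intestinal lineage markers. The summed level of the 14 epithelial markers was 23 to 36.0 CPM in the controls and 41.8 to 48.7 CPM after 12 Gy. CPM, the usual count per library size, is taken here over the reads of known genes after scaling. The 14 intestinal markers summed to 2.55 to 2.91 CPM and 1.9 to 6.67 CPM. The 13 mesenchymal markers summed to 1430 to 2090 CPM in the controls and to 3480 to 4000 CPM after 12 Gy. Most of this difference was Vim: the other 12 summed to 829, 761 and 844 CPM against 957, 1080 and 1050 CPM. The keratin Krt18 was present at 1.74 to 7.09 CPM in the controls. Among the other epithelial markers, Tjp1 stood at 11.8 to 12.3 CPM and Jup at 5.92 to 12.8 CPM in the controls. The 10 immune markers summed to 51.9 to 65.0 CPM and 51.8 to 70.8 CPM, with Ptprc, Cd3e, Itgam and Adgre1 at 0 reads. Most of this sum was Cd68 (20.7 to 26.5 CPM and 20.6 to 37.1 CPM), Cd14 (19.3 to 24.0 CPM and 15.8 to 21.2 CPM) and Lyz2 (9.41 to 12.0 CPM and 4.24 to 13.3 CPM). The 6 endothelial markers summed to 6.17 to 10.5 CPM and 11.8 to 16.9 CPM, with Tek and Emcn at 0 reads. Nearly all of this sum was Tie1, at 5.81 to 10.5 CPM and 11.8 to 16.6 CPM. By these markers the libraries carried little of the labelled lineage's own transcripts.

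The 3 control libraries held 4831641, 3776038 and 3779351 assigned reads, and the 3 irradiated libraries 3953638, 3831703 and 3782391. Control library 1 stood apart in its counts over loci of all kinds, not known genes alone. These counts differed from those of controls 2 and 3 by 8.80 and 8.05 times the sampling noise (chi-square per degree of freedom). The value was 3.92 between controls 2 and 3 and 2.24 to 5.66 among the irradiated libraries. Where a named gene lost its call without 1 library, or its fold moved by over 1.5 times, this is given beside it. Genes given only as further list or pathway examples were not refitted without each library.

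The transcriptome after 12 Gy was set apart from the control first by its loci without a known gene. The deposited table holds 33625 loci, of which 22036 are known genes, 10995 are loci assembled from the reads (new loci) and 594 are assembled long noncoding loci. New loci took 21.0 ± 1.03% (SD, n = 3) of the control reads and 11.9 ± 0.0571% (n = 3) of the irradiated reads, and known genes 76.3 ± 1.19% and 86.2 ± 0.0113%. Each irradiated library was below each control library in the first share and above it in the second. The number of new loci with at least 1 read was 9848 to 9973 in the controls and 8179 to 8382 after 12 Gy, while known genes with reads numbered 11899 to 12157 and 11891 to 12048. The 100 genes with the most reads took 37.0 ± 1.05% and 39.6 ± 0.149% of reads.

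This shift sets how known genes are scaled, so 2 fits with edgeR's quasi-likelihood test are given. With all loci scaled together, 15086 were tested and 7238 (48.0%) passed a Benjamini-Hochberg adjusted p under 0.05, with 2798 (18.5%) higher and 4440 (29.4%) lower. Among the 9809 known genes in that fit, 2600 (26.5%) were higher and 391 (3.99%) lower, with a median log2 fold change of 0.23. Of the 4898 new loci tested, 4089 (83.5%) passed, 135 (2.76%) of them upward and 3954 (80.7%) downward, with a median of -1.87 and quartiles of -2.58 and -1.16. Of 379 long noncoding loci, 63 (16.6%) were higher and 95 (25.1%) lower. With the 9816 testable known genes scaled alone, 898 (9.15%) were higher and 776 (7.91%) lower, 1674 (17.1%) in all, with a median of 0.00. The split of known genes was thus 2600 to 391 under one scaling and 898 to 776 under the other. All 898 higher genes were higher in both fits, 389 lower genes were lower in both, and 0 changed sides. A further 1702 known genes were higher only with all loci scaled together and 386 lower only with known genes alone. Below, "rose" and "fell" are kept for genes that passed in the same direction in both fits, and the values given are those of known genes alone unless another scale is named. The value with all loci scaled together is higher by about 0.23 on the log2 scale. Passing in both fits thus asked more of falls than of rises. It adds little to a rise and left little room to change sides. List counts below can be read against the shares over all known genes given here.

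**Figure D1:**
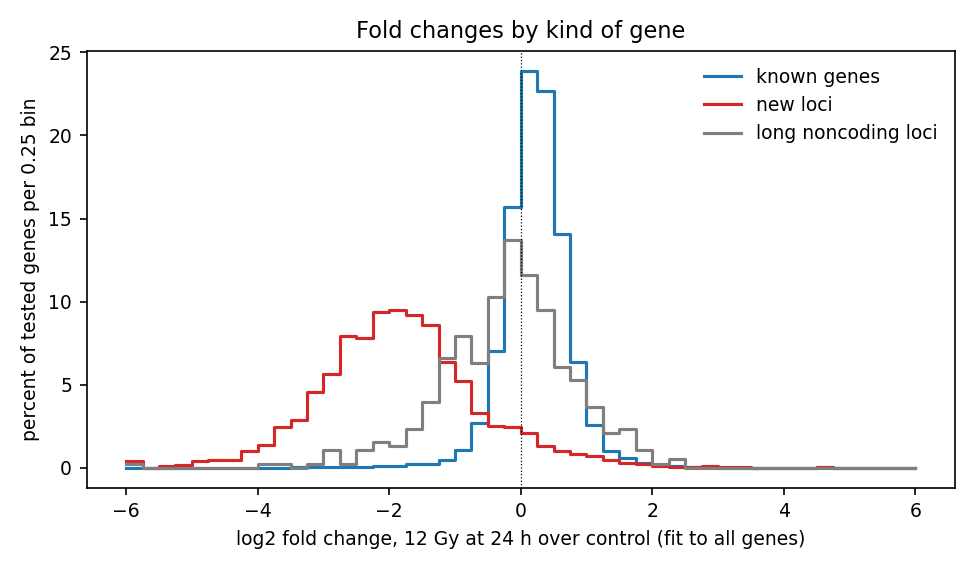
Distribution of log2 fold changes (12 Gy at 24 h over control, all loci scaled together, x axis) as the percent of tested loci in bins of 0.25 (y axis), for known genes, new loci and long noncoding loci, with values beyond -6 or 6 in the end bins. The new loci center near -1.87, while known genes lie in a narrow peak around 0.23.

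Among the new loci, the share that was lower differed with their database match. The read platform is not settled by the sources used, and whether the database matches are right was not tested. Of 3344 tested loci annotated with the same KEGG orthology entry, 2946 (88.1%) were lower. Of 1313 with another database match, 939 (71.5%) were lower, and of 241 with no match, 69 (28.6%) were lower and 36 higher, with medians of -1.87 and -0.17. The share was similar across levels: in 5 equal bins of tested new loci by mean level it ran from 75.8% to 85.1%. There were 79 new loci with at least 20 control reads and 0 reads in the irradiated libraries, and 1 of the opposite kind. The locus ONT.12566 had 35, 45 and 51 control reads and 0 in each irradiated library, at least 38.5-fold lower against a floor of 3 reads over the group. The locus ONT.2927 had 39, 42 and 40 control reads and 0 after 12 Gy, at least 35.5-fold lower. On the rising side, ONT.4942 had 31, 20 and 18 control reads against 501, 505 and 443. Long noncoding locus ONT.10479 had 112, 73 and 47 control reads against 313, 346 and 330, with a log2 fold change of 2.30 ± 0.21 (SE) and an adjusted p of 1.99e-07 in the fit to all loci.

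Genes of glycolysis were higher after 12 Gy along nearly the whole pathway. Of 17 tested members of the glycolysis list, 14 rose, 0 were lower and 3 did not pass, with a median log2 fold change of 0.74 against 0.00 over all known genes tested. Scaled with all loci, 15 were higher. The members that rose run from glucose uptake to lactate export: Slc2a1, the main glucose transporter (0.87), the 3 phosphofructokinases Pfkl, Pfkp and Pfkm (1.26, 0.78 and 0.62), Aldoa, Tpi1, Gapdh, Pgk1, Pgam1, Eno1, Pkm, Ldha and the lactate transporter Slc16a3 (0.97). Hk1, Hk2 and Eno2 did not pass (0.24, 0.47 and -0.17 on the log2 scale). Pgk1, which makes ATP from 1,3-bisphosphoglycerate (ENSMUSG00000062070, chrX:106187100-106203699, + strand, GRCm38), stood at 1170, 882 and 937 CPM in the controls and at 1690, 1760 and 2160 CPM after 12 Gy. All irradiated libraries lay above all controls, with a log2 fold change of 0.91 ± 0.11 (SE) and an adjusted p of 4.89e-05. Aldoa, the muscle-type aldolase, stood at 566, 448 and 404 CPM against 925, 1060 and 1120 CPM, a rise of 1.13 ± 0.12 (adjusted p = 1.98e-05). Pkm, pyruvate kinase, stood at 2270, 1480 and 1420 CPM against 3230, 3620 and 4970 CPM, and control 1 was again the highest control for these genes. The groups of 3 did not overlap in either direction for 32.3% of all known genes tested, so this alone sets no gene apart.

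Genes of the hypoxia list rose less uniformly. Of 18 tested members, 6 rose and 12 did not pass, with a median of 0.32. With all loci scaled together 11 were higher. The members that rose were Bnip3 and Bnip3l, receptors for mitophagy, Hilpda, a lipid droplet protein, Ndrg1, Higd1a and Ankrd37. Bnip3 stood at 39.7, 44.2 and 43.6 CPM against 84.9, 89.2 and 128 CPM (1.25 ± 0.19, adjusted p = 0.000392). Hilpda stood at 66.9, 99.6 and 75.9 CPM against 149, 167 and 155 CPM. For Ankrd37, which overlaps Ufsp2 and cannot be told apart from it without the strand, the values were 1.45 to 2.09 CPM against 6.06 to 8.22 CPM. Vegfa and Hif1a itself did not pass (0.07 and 0.33).

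HIF1A binds the letters ACGTG, so the 250 bases before the annotated starts of the leading members were searched for them on both strands, from RefSeq on GRCm38.p6. The windows of Pgk1, Bnip3 and Aldoa are printed as examples that hold a match, with matches in capitals, read 5' to 3' on the strand of the gene:
Pgk1: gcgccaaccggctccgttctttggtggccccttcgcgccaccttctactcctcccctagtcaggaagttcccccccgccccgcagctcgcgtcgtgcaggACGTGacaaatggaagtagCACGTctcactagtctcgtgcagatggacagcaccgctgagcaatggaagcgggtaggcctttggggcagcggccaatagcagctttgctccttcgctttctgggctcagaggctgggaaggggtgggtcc
Bnip3: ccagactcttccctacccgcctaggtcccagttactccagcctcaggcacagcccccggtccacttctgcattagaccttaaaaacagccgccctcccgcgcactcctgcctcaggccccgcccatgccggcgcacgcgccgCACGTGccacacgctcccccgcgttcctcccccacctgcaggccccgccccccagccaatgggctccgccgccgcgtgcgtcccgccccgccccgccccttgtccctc
Aldoa: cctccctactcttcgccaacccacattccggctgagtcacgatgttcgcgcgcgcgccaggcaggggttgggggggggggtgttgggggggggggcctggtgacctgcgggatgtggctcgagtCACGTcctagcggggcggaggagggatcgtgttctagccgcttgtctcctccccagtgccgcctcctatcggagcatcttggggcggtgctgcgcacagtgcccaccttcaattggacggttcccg
The Pgk1 window (chrX:106186850-106187099, + strand) holds 2 matches on opposite strands, 150 and 131 bases before the start. The Bnip3 window (chr7:138909507-138909756, - strand) holds the palindrome CACGTG, which is an overlapping match on each strand. In the Aldoa window (chr7:126799255-126799504, - strand) the single match lies 126 bases before the start. Of all 32851 RefSeq promoter windows, 16.6% hold ACGTG, against 10 of 23 windows (43.5%) of the 14 glycolysis genes that rose and 3 of 5 windows (60.0%) of the hypoxia genes that rose and have one. Over all tested genes, risen or not, the share was 11 of 27 windows (40.7%) for glycolysis and 11 of 20 (55.0%) for hypoxia. Windows of the same gene can overlap, so these shares can count the same match more than once, as for Aldoa. A match is a description of the letters and is not evidence of binding. The searched windows of Pfkl and Tpi1, and another start of Aldoa, held no ACGTG, while Ankrd37 and 1 of the 2 starts of Hilpda held it. For the NRF2 motif TGACNNNGC, 2 of 15 windows of antioxidant genes that rose held a match (13.3%), against 10.2% of all promoters. Over all tested antioxidant genes it was 5 of 28 windows (17.9%), so the share was not higher among those that rose.

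The transferrin receptor, the ferritins and 13 antioxidant genes were higher after 12 Gy. Of 12 tested iron genes 5 were higher and 1, the zinc and iron importer Slc39a14, was lower only with known genes alone (-0.53). The iron importer Slc11a2 did not pass (-0.30), so among the importers tested the rise was that of Tfrc. The transferrin receptor Tfrc (ENSMUSG00000022797, chr16:32608920-32632794, + strand) stood at 13.0, 21.3 and 9.08 CPM in the controls and 67.9, 74.0 and 70.5 CPM after 12 Gy. The irradiated libraries were close to each other and all above the controls, with a log2 fold change of 2.29 ± 0.21 (SE) and an adjusted p of 3.94e-06. Ferritin heavy chain Fth1 stood at 4890, 4220 and 3620 CPM against 7340, 8210 and 8460 CPM (0.92 ± 0.11). The call of ferritin light chain Ftl1 (0.34) was lost without irradiated library 2 or 3 (down to 0.29). As background, the transferrin receptor and ferritin proteins are known to be set in opposite directions by iron through the iron regulatory proteins. Only RNA was measured here.

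Of 26 tested NRF2 antioxidant genes, 13 rose and 1 fell (53.8% called, against 17.1% of all known genes), with a median of 0.52. With all loci scaled together 21 were higher, where 26.5% of all known genes were higher. Nqo1, which reduces quinones, stood at 8.51, 17.4 and 7.26 CPM against 43.9, 48.4 and 46.3 CPM (2.07 ± 0.28, adjusted p = 0.000148). Hmox1, which breaks down heme, stood at 60.1, 141 and 87.2 CPM against 340, 417 and 402 CPM (2.01 ± 0.25). Gsta1 and Gsta4, glutathione transferases, rose by 2.50 and 1.38, and Gsta1, at 3.40 without control 2, has close relatives between which counting may split reads. The gene that fell was Ephx1, microsomal epoxide hydrolase, at 103 to 132 CPM against 59.4 to 69.8 CPM. The rise of Slc7a11, the cystine importer, (0.89) was lost when any of 5 of the 6 libraries was left out, with values down to 0.55. Nfe2l2, which encodes NRF2, and its inhibitor Keap1 did not pass (0.07 and -0.09).

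Genes of the actin cytoskeleton, the annexins and the S100 proteins rose as groups. Of 31 tested actin genes, 17 rose, 0 fell and 14 did not pass, with a median of 0.40, and 26 were higher with all loci scaled together. Without control 3 or without irradiated library 2 the count was 10. Actg1, cytoplasmic gamma-actin (ENSMUSG00000062825, chr11:120345690-120348542, - strand), stood at 332, 213 and 204 CPM against 1030, 1100 and 1200 CPM. This is the actin gene with the largest fold change (2.15 ± 0.18, adjusted p = 1.43e-06), whereas beta-actin Actb stood at 657 to 799 CPM and 858 to 950 CPM and did not pass when known genes were scaled alone (0.29, adjusted p = 0.0544). Vcl, which links actin to adhesions, rose by 1.22, the actin-severing Gsn by 1.06 and calponin Cnn2 by 1.16. Actin genes have many near-identical pseudogenes, so reads may be split between copies.

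Of 18 tested annexin and S100 genes, 11 rose and 0 fell, with a median of 0.43. Anxa2, a calcium-dependent membrane protein, stood at 1220, 848 and 962 CPM against 1720, 2020 and 2220 CPM (0.98 ± 0.14). S100a4 rose by 1.40 ± 0.21, and its reads may be shared with an overlapping gene model. Vim, a filament protein of mesenchymal cells (chr2:13573927-13582826, + strand), stood at 1260, 668 and 684 CPM against 2740, 2920 and 2430 CPM (1.63 ± 0.20). Control 1 was the highest control and still below each irradiated library. Krt18, a keratin of simple epithelia, stood at 7.09, 1.74 and 4.36 CPM against 13.9, 19.6 and 17.9 CPM (1.9 ± 0.30, and 2.49 without control 1). Krt7 fell (-1.32 ± 0.40) from 3.14 to 3.69 CPM to 0.909 to 1.99 CPM. Among the other mesenchymal markers, Sparc, Col1a2 and Cdh2 passed as higher and Pdgfrb as lower, at 3.48 to 4.72 CPM against 0.633 to 1.65 CPM. The call of Cdh2 (0.64) was lost without irradiated library 1 or 2 or control 2, with values down to 0.54. Fn1, fibronectin, stood at 322 to 353 CPM and 279 to 329 CPM. The part of these marker levels in the other results was not tested. Fewer cells of a type and less RNA per cell cannot be told apart in bulk RNA.

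**Figure D2:**
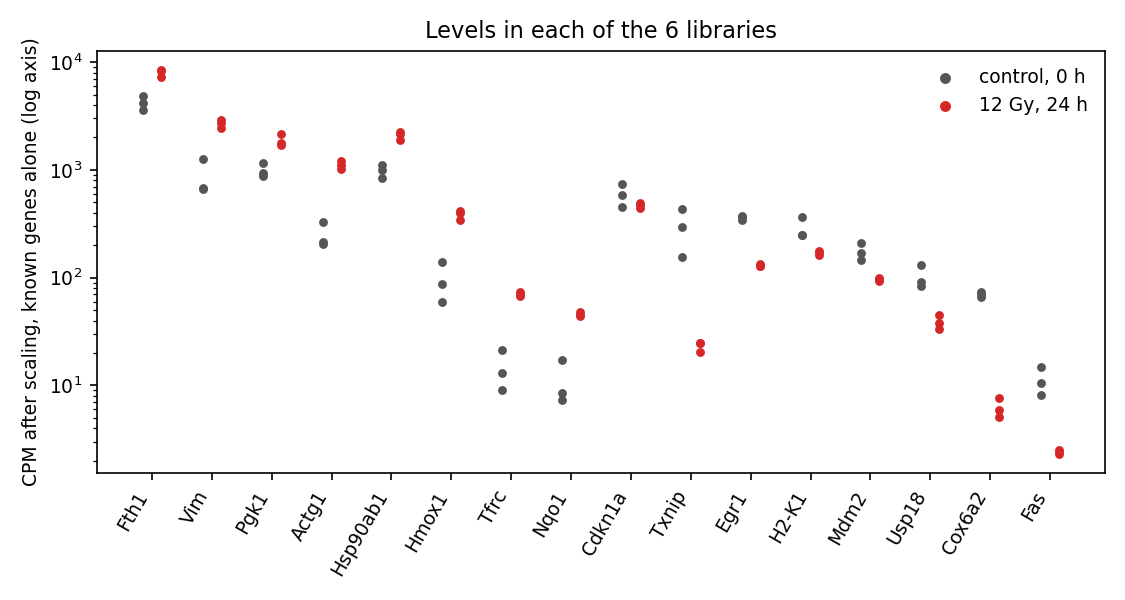
Levels in CPM after scaling (y axis, log scale) of 16 genes named in the text (x axis), in the 3 control libraries (gray) and the 3 libraries taken 24 h after 12 Gy (red). Tfrc lies at 9.08 to 21.3 CPM in the controls and at 67.9 to 74.0 CPM after 12 Gy, Txnip at 157 to 435 CPM and 20.6 to 25.0 CPM, and the groups of Cdkn1a overlap.

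Of 17 tested genes of the matrix list, 5 were higher and 1 lower, and 7 and 0 with all loci scaled together. The share called with known genes alone was 35.3%, against 17.1% of all known genes. Col4a1 and Col4a2, the basement membrane collagens, rose by 0.70 and 1.18. Col4a2 stood at 11.5 to 12.5 CPM in the controls and at 23.2 to 31.6 CPM after 12 Gy. Sparc, a collagen-binding protein, rose by 0.93. Lamc1 was lower only with known genes alone (-0.35). Among surface receptors for matrix, Itga6 rose from 15 to 24.7 CPM to 48.5 to 60.2 CPM (1.38 ± 0.19), and Cd44, the hyaluronan receptor, from 157 to 179 CPM to 268 to 303 CPM (0.80 ± 0.11). Both were chosen after their values were seen, since the KEGG pathway of matrix receptors had a high median (below).

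Some constitutive cytosolic chaperones were higher after 12 Gy. Of 22 tested heat shock genes 5 rose and Hspe1 was lower only with known genes alone (-0.31). The share called was 27.3%, against 17.1% of all known genes. With all loci scaled together, 18 were higher, where 26.5% of all known genes were higher. Hsp90ab1, a constitutive HSP90, stood at 1100, 995 and 850 CPM against 1880, 2140 and 2260 CPM (1.10 ± 0.11, adjusted p = 7.09e-06). Hspa8, the constitutive HSP70, stood at 217, 198 and 167 CPM against 479, 456 and 408 CPM (1.21 ± 0.13). Hsp90aa1, the inducible HSP90, stood at 305 to 383 CPM and 341 to 371 CPM (0.00 ± 0.10, adjusted p = 0.998). Cct4 and Cct5, subunits of the actin and tubulin folding chaperonin, rose by 0.43 and 0.59.

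Of 22 tested ER chaperone genes 1 was higher and 3 lower (18.2% called, near the 17.1% of all known genes), and with all loci scaled together 6 were higher and 2 lower, so the balance of the list turns with the scaling. Hyou1, an ER chaperone of the HSP110 family, stood at 46.2, 47.7 and 45.8 CPM against 22.4, 22.5 and 19.2 CPM, a fall of -1.12 ± 0.18 (adjusted p = 0.000533). Hspa5, the ER chaperone BiP, stood at 553, 1360 and 1310 CPM against 504, 528 and 429 CPM (-1.14 ± 0.24), with control 1 near the irradiated range. P4hb, protein disulfide isomerase, was higher (0.44), a call lost without control 3 (0.40). Ppp1r15a, a phosphatase subunit of the integrated stress response, fell by 1.07 on the log2 scale, from 151 to 212 CPM to 82.7 to 99.6 CPM. Of 24 tested ATF4 genes 3 were higher and 5 lower, of which Ppp1r15a alone was also lower with all loci scaled together, where 6 were higher.

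The protein synthesis machinery did not move as 1 group. Of 80 tested cytosolic ribosomal protein genes, 8 were higher and 18 lower with known genes alone, while 28 were higher and 2 lower with all loci scaled together, so the direction of the family depends on the scaling. The medians were -0.11 and 0.13. Rps12 and Rps23 were lower in both fits: Rps12, a small subunit protein, stood at 3080, 3380 and 3600 CPM against 1630, 1940 and 2490 CPM (-0.73 ± 0.12). Rpl29 and Rps29 were higher in both fits, with Rpl29 at 20.7 to 28.9 CPM against 61.2 to 69.2 CPM (1.45 ± 0.18). Ribosomal protein genes have many pseudogenes, so reads may be split. Of 62 tested translation factors, 17 rose (32 with all loci scaled together) and 4 were lower, 1 of them (Eef1akmt3, -2.13, or -2.74 without irradiated library 2) in both fits. Eif2s2, the beta subunit of eIF2, stood at 723, 707 and 750 CPM against 1040, 1040 and 1150 CPM (0.56 ± 0.08, adjusted p = 0.000281). Eif3e and Eif3l, subunits of eIF3, rose by 0.54 and 0.70. Of 33 ribosome biogenesis genes 4 were higher and 1 lower (15.2% called, near the 17.1% of all known genes). With all loci scaled together 19 were higher and 1 lower, where 26.5% of all known genes were higher. The helicase Ddx21 stood at 98.1 to 106 CPM against 137 to 180 CPM.

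Respiratory chain genes also split by subunit. Of 80 tested nuclear genes of oxidative phosphorylation, 10 rose and 11 were lower with known genes alone (26.2% called). Of all known genes 17.1% were called. With all loci scaled together, 4 of the 11 were also lower and 40 genes of the list were higher, where 26.5% of all known genes were higher. Uqcrh and Uqcr11 of complex III rose by 0.60 and 0.64, and Uqcrq of the same complex fell from 1440, 1450 and 1570 CPM to 924, 914 and 956 CPM (-0.67 ± 0.10). Ndufa8 of complex I rose by 0.57 and Ndufa7 fell by 0.60 on the log2 scale. Cox6a2, the muscle form of a complex IV subunit, had the largest fall of the list: 66.1, 70.7 and 73.7 CPM against 7.58, 5.06 and 5.96 CPM, or -3.49 ± 0.33 (adjusted p = 5.91e-06). Of 12 genes encoded in mitochondrial DNA 4 were higher, of which mt-Nd1 rested on 2 of the 3 irradiated libraries (488 and 535 CPM, with 197 CPM in the third) and lost its call without irradiated library 2 (1.23).

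The p53 response, the standard readout of DNA damage, was not higher at 24 h. Of 33 tested p53 targets 0 were higher and 14 were lower with known genes alone, with a median of -0.51. With all loci scaled together 10 were lower and 1 higher. Mdm2, the ubiquitin ligase that p53 induces against itself, stood at 145, 210 and 168 CPM against 100, 97.4 and 92.7 CPM (-0.85 ± 0.14, adjusted p = 0.000645). The death receptor Fas stood at 8.22, 15 and 10.5 CPM against 2.42, 2.53 and 2.32 CPM (-2.18 ± 0.35). Psrc1, a spindle protein (chr3:108383839-108388231, + strand), stood at 199, 220 and 243 CPM against 109, 98.0 and 98.3 CPM (-1.11 ± 0.13). Bax, Zmat3, Btg2, Phlda3, Ei24, Ercc5 and Pidd1 fell too, by values between -0.51 and -1.69. Cdkn1a, the p21 inhibitor of cyclin-dependent kinases, stood at 457, 586 and 746 CPM against 448, 469 and 491 CPM, so that the groups overlapped, and did not pass (-0.34 ± 0.14, adjusted p = 0.101), though it passed as lower without control 1 (-0.50). Trp53 itself was lower when known genes were scaled alone (-0.53, adjusted p = 0.0103) and did not pass with all loci scaled together (-0.30, adjusted p = 0.0765).

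Cell cycle genes were called at shares of the same order as the 17.1% of all known genes. Of 42 tested G2/M and mitosis genes 3 were higher and 2 lower (11.9% called), and 12 and 2 with all loci scaled together. Of 42 G1/S and replication genes 2 were higher and 7 lower (21.4%), and 5 and 3 with all loci scaled together, so the balance of this list turns with the scaling. Mki67, a marker of cycling cells, stood at 36.9, 41.5 and 33.0 CPM against 17.6, 21.5 and 16.5 CPM (-1.0 ± 0.16), and Cenpf, a kinetochore protein, fell by 1.0 on the log2 scale. Cdc25b, a phosphatase that starts mitosis, rose by 0.74. Rfc3 and Rpa3 of DNA synthesis fell, with values of -0.66 and -0.59. Cyclin D1 (Ccnd1) rose from 282 to 294 CPM to 406 to 562 CPM (0.67 ± 0.13). Of 36 tested genes of recombination, the Fanconi pathway and checkpoints, 0 were higher and 2 lower (5.56% called). The lower genes were Bard1 in both fits (-1.72) and Brca2 with known genes alone (-0.75). With all loci scaled together 4 were higher and 1 lower. Of 11 end joining genes 1 was higher (Parp1, 0.73, lost without control 3 at 0.52) and 3 lower, against 3 and 1 with all loci scaled together. Of the lower genes, Xrcc6, which encodes Ku70, was lower in both fits, at 70.4 to 87.9 CPM against 38.6 to 44.6 CPM. Xrcc6 overlaps Desi1, and without the strand their reads cannot be told apart. Of 15 tested core histone genes none passed with known genes alone and 3 were higher with all loci scaled together.

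Many interferon-stimulated genes were lower, and so were several genes of class I antigen presentation. Of 45 tested interferon-stimulated genes 20 were lower and 1 higher with known genes alone, with a median of -0.48, and 15 were lower and 3 higher with all loci scaled together. Without control 2 the first count of lower genes was 13. Usp18, which dampens the interferon receptor (chr6:121245906-121270917, + strand), stood at 91.0, 130 and 83.2 CPM against 33.3, 38.0 and 45.3 CPM. Every irradiated library lay below every control, with -1.38 ± 0.19 and an adjusted p of 0.000159. Ifi44 stood at 73.2, 117 and 86.1 CPM against 37.6, 34.5 and 35.1 CPM, Dhx58, a helicase of RNA sensing, fell by 1.68 and Irf7, the inducible interferon regulatory factor, by 0.99 on the log2 scale. Oas1g, Oas2 and Oas3 fell too, and Oas genes are close relatives between which reads may be split. The kinase Eif2ak2 was the exception (0.51), a call lost when any of 4 libraries was left out, with values down to 0.33. Control 2 was the highest control for Usp18, Ifi44 and Oas1g.

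Of 17 tested class I presentation genes 8 were lower and 0 higher with known genes alone, and with all loci scaled together 4 were lower and 3 higher (Psme1, Canx and Pdia3). Without irradiated library 1 or control 2, 5 were lower with known genes alone. H2-K1, a classical class I heavy chain (chr17:33996017-34000347, - strand), stood at 249, 366 and 250 CPM against 162, 174 and 177 CPM (-0.75 ± 0.15). The peptide transporter genes Tap1 and Tap2 fell by 0.99 and 0.73 on the log2 scale. The immunoproteasome subunit Psmb9 stood at 8.72 to 12.2 CPM against 0.331 to 4.55 CPM (-1.91 ± 0.39, and -2.60 without irradiated library 1). Psmb9 overlaps the start of Tap1, and without the strand reads of the shared stretch cannot be told apart. H2 genes resemble each other closely, so single H2 values are uncertain. Of 21 tested NF-kB, chemokine and secretory genes 3 were higher, Il24 and Plaur among them, and 6 lower, against 4 higher and 3 lower with all loci scaled together, so the balance turns with the scaling. Lcn2, a siderophore-binding lipocalin, stood at 28.4, 353 and 70.5 CPM against 1.82, 0.949 and 0.331 CPM, so the controls themselves spread widely (-7.10, with -5.48 without control 2 and -7.77 without irradiated library 1). The fall of Cxcl1 (-3.71) rested on control 2, at 944 CPM, and was -1.06 and not called without it. Its call was lost without any irradiated library too.

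Several immediate-early and clock genes were lower. Of 30 tested immediate-early genes 7 were lower and 2 higher with known genes alone, and 5 lower and 6 higher with all loci scaled together, so the balance of the list turns with the scaling. Egr1, a zinc finger factor induced within minutes by growth factors, stood at 341, 374 and 364 CPM against 134, 128 and 128 CPM. Its groups were tight and far apart, with -1.46 ± 0.12 (adjusted p = 1.43e-06). Fos and Fosb, partners of Jun in AP-1, fell by 1.64 and 1.17 on the log2 scale, and their calls were lost without irradiated library 1 (Fos, -1.24) and without control 1 (Fosb, -0.76). Zfp36l2, which destabilises AU-rich mRNAs, rose by 1.06. Of 14 tested circadian and PAR bZIP genes 5 were lower and 0 higher with known genes alone, with a median of -0.36, and 4 lower and 2 higher with all loci scaled together. Tef, a PAR bZIP factor, stood at 27.8, 31.0 and 35.6 CPM against 13.6, 10.4 and 14.9 CPM (-1.27 ± 0.19, adjusted p = 0.000276). Nr1d1 (REV-ERB alpha) and Ciart, repressors in the clock, fell by 0.85 and 0.93 on the log2 scale. Arntl and Clock did not pass (0.44 and 0.11).

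**Figure D3:**
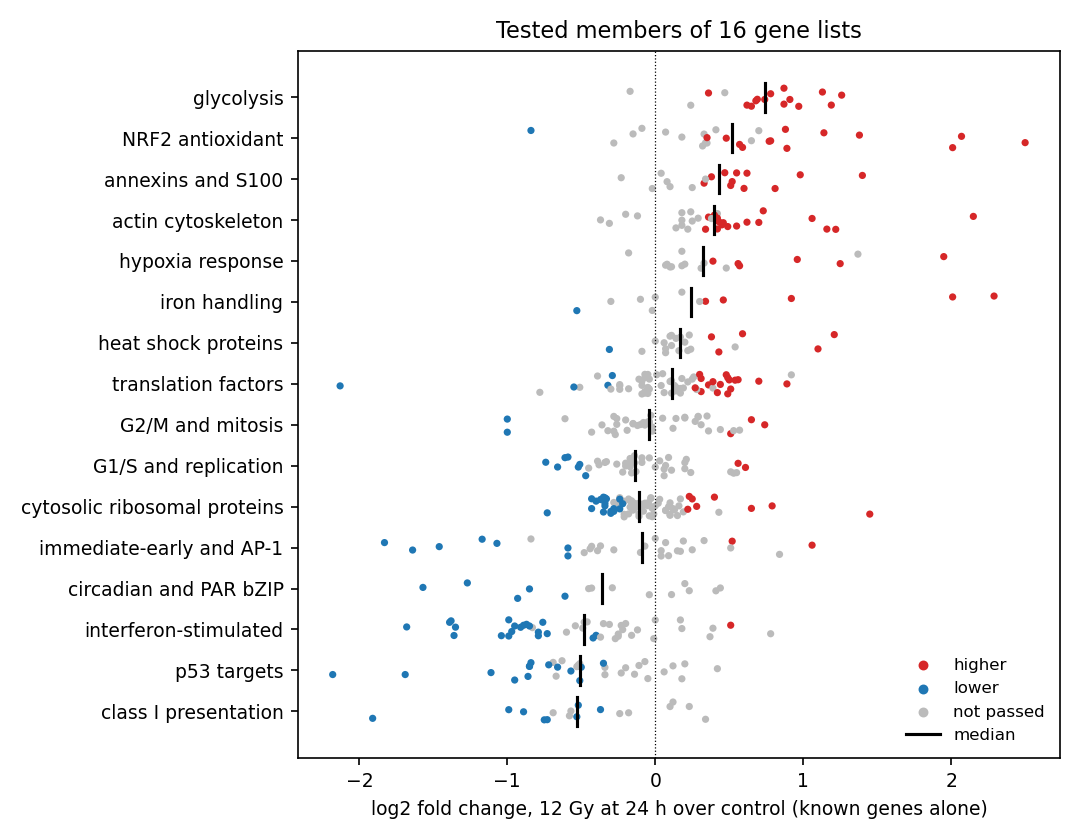
Log2 fold changes with known genes alone (x axis) of the tested members of 16 gene lists (y axis), with members that passed higher in red, lower in blue, the others in gray and the list median as a black bar. The medians run from 0.74 for glycolysis to -0.53 for class I presentation.

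The largest changes fell outside these lists or on single members of them. Txnip, an arrestin that limits glucose uptake and binds thioredoxin (ENSMUSG00000038393, chr3:96557957-96561883, + strand), stood at 157, 297 and 435 CPM against 20.6, 25.0 and 24.8 CPM. All irradiated libraries lay far below the controls, which themselves spread, with -3.65 ± 0.34 and an adjusted p of 3.99e-06. Of the other arrestins of its list, Arrdc1 rose by 0.64. Csn3, kappa-casein, stood at 42.3, 55.7 and 57.4 CPM against 3.94, 2.85 and 2.65 CPM (-4.01 ± 0.39). Taf7l, a germline paralog of Taf7, had 74 control reads in all against 3, 25.6-fold lower (counting interval 8.41 to 127). Avil, an actin-binding protein, fell by 4.05 on the log2 scale (-4.84 without irradiated library 3), but overlaps Tsfm, so its reads are uncertain.

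On the rising side, Il1rl1, the receptor of IL-33, stood at 6.52, 8.01 and 4.36 CPM against 31.8, 35.7 and 33.1 CPM (2.40 ± 0.26, adjusted p = 1.98e-05). Trim54, a muscle-type TRIM protein, rose by 2.31. Ctsl, a lysosomal cysteine protease with high levels in these cells, stood at 2150, 2910 and 2550 CPM against 4670, 4950 and 6460 CPM (1.08 ± 0.13). Of 34 tested lysosome genes 3 were higher and 3 lower (17.6% called, near the 17.1% of all known genes), and 10 and 0 with all loci scaled together. Usp50, a ubiquitin protease family gene, had 0 reads in the 3 controls and 139, 15 and 126 after 12 Gy, which is at least 90.1-fold higher when 3 reads are set as the control floor, with the middle irradiated library far below the others. Usp50 is annotated over chr2:126709096-126783470 (- strand). Without the strand its reads cannot be told apart from those of any overlapping gene. Il24, a cytokine of the IL-10 family, had 2 reads against 51, a ratio of 24.6 with a 95% counting interval of 6.47 to 209, and its fitted log2 fold change of 4.40 was 7.09 without control 1. Ccr1, a chemokine receptor, had 3 reads against 50, a ratio of 16.1 (5.20 to 80.6), with a fitted 3.85, or 4.77 without control 3. These intervals cover counting error only.

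Genes of the cell death lists were called in both directions, except those of ferroptosis. Of 15 tested pyroptosis genes 2 were higher and 3 lower with known genes alone, and 5 higher and 2 lower with all loci scaled together. Over all known genes, 9.15% were higher and 7.91% lower with known genes alone. With all loci scaled together these shares were 26.5% and 3.99%. Gsdme, a gasdermin, stood at 13.6, 13.2 and 9.81 CPM against 17.0, 20.9 and 29.1 CPM (0.85 ± 0.26, adjusted p = 0.0297), and Casp1 at 16.7, 24.4 and 19.2 CPM against 25.8, 31.3 and 30.1 CPM (0.54, adjusted p = 0.0310). Each of these calls was lost when any of 4 libraries was left out, with values down to 0.62 and 0.41. Casp4 (-2.40) rested on control 2, at 37.3 CPM against 7.37 and 12.0 CPM in the other controls, and was -1.44 and not called without it. Gsdmd did not pass (-0.50, adjusted p = 0.497). Bid, a BH3 protein, rose by 0.69, though it overlaps Bcl2l13, and Bax fell by 0.51 on the log2 scale. Of 21 tested ferroptosis genes 8 were higher and 0 lower (12 and 0 with all loci scaled together), among them Tfrc, Fth1 and Hmox1 already given, and Lpcat3, a phospholipid remodeling enzyme (0.51).

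Across pathways of the KEGG annotation in the deposited table, 256 had at least 20 tested known genes. Among the highest medians were Mineral absorption (0.34, 6 higher and 1 lower of 20), Glutathione metabolism (0.33, 15 higher and 3 lower of 39), ECM-receptor interaction (0.28, 15 and 4 of 41) and Biosynthesis of unsaturated fatty acids (0.26, 7 and 0 of 23). Among the lowest were p53 signaling (-0.33, 7 and 14 of 65), Basal transcription factors (-0.26, 1 and 8 of 38), Antigen processing and presentation (-0.20, 3 and 11 of 34) and TNF signaling (-0.18, 6 and 11 of 82). The shares called in these low pathways were 32.3%, 23.7%, 41.2% and 20.7%, in that order, against 17.1% of all known genes. Pathways share members, and all those named were read after their values were seen. In the glutathione pathway, Odc1, which makes putrescine, stood at 271, 429 and 212 CPM against 479, 533 and 723 CPM (0.93 ± 0.19). In the fatty acid pathway, Hacd1, a dehydratase of very long chain fatty acids, stood at 103, 97.5 and 87.2 CPM against 316, 325 and 191 CPM (1.53 ± 0.32). Of the basal transcription factors, Gtf2b (TFIIB) was lower with known genes alone (-0.38) and did not pass with all loci scaled together (-0.14, adjusted p = 0.366).

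The calls were more frequent at higher levels. Known genes were cut into 5 equal bins by mean level: 4.23% were higher and 4.99% lower in the lowest bin, and 17.7% and 13.0% in the highest. By transcript length the shortest bin had 11% higher and 13.7% lower and the longest 6.83% and 5.15%. The median log2 fold change of the bins stayed between -0.045 and 0.043, which is small beside the quartiles of all known genes, -0.27 and 0.27.

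Cells taken 48 h after the same dose give the state a day later, and the 24 h and 48 h groups share the same controls. With known genes alone, 2330 of 9816 genes (23.7%) differed between 24 h and 48 h, 1240 (12.6%) higher and 1090 (11.1%) lower at 24 h. Txnip stood at 267, 286 and 198 CPM at 48 h, in the control range, and differed from 24 h by -3.41 (adjusted p = 3.30e-06). Tfrc stood at 18, 18.6 and 18.8 CPM at 48 h and differed by 1.94 (adjusted p = 5e-06), Actg1 at 264 to 393 CPM and by 1.85, and Pgk1 at 944 to 960 CPM and by 0.97. These genes thus stood near the control levels at 48 h and away from them at 24 h. For Nqo1 and Gsta4, by contrast, the values against control were 2.07 and 1.38 at 24 h and 1.88 and 1.78 at 48 h, and the difference did not pass (adjusted p = 0.606 and 0.0665). Hspa8 was 1.21 above the controls at 24 h and 1.18 at 48 h (adjusted p of the difference 0.904).

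Some genes passed in opposite directions at the 2 times: 50 known genes were lower at 24 h and higher at 48 h, and 24 the reverse. Usp18 stood at 183, 186 and 237 CPM at 48 h, above every control, after 33.3 to 45.3 CPM at 24 h. H2-K1 stood at 519, 519 and 496 CPM at 48 h, against 249 to 366 CPM in the controls and 162 to 177 CPM at 24 h. Fos stood at 52.9, 64.7 and 78.0 CPM at 48 h against 3.03 to 12.7 CPM at 24 h and 17.8 to 28.9 CPM in the controls. For these 3 genes the order was thus 24 h below control below 48 h, with no overlap between the 3 libraries of each group. The naming rule already asked for no overlap between 24 h and control. These genes were chosen among those called in opposite directions, so the order is a description only.

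**Figure D4:**
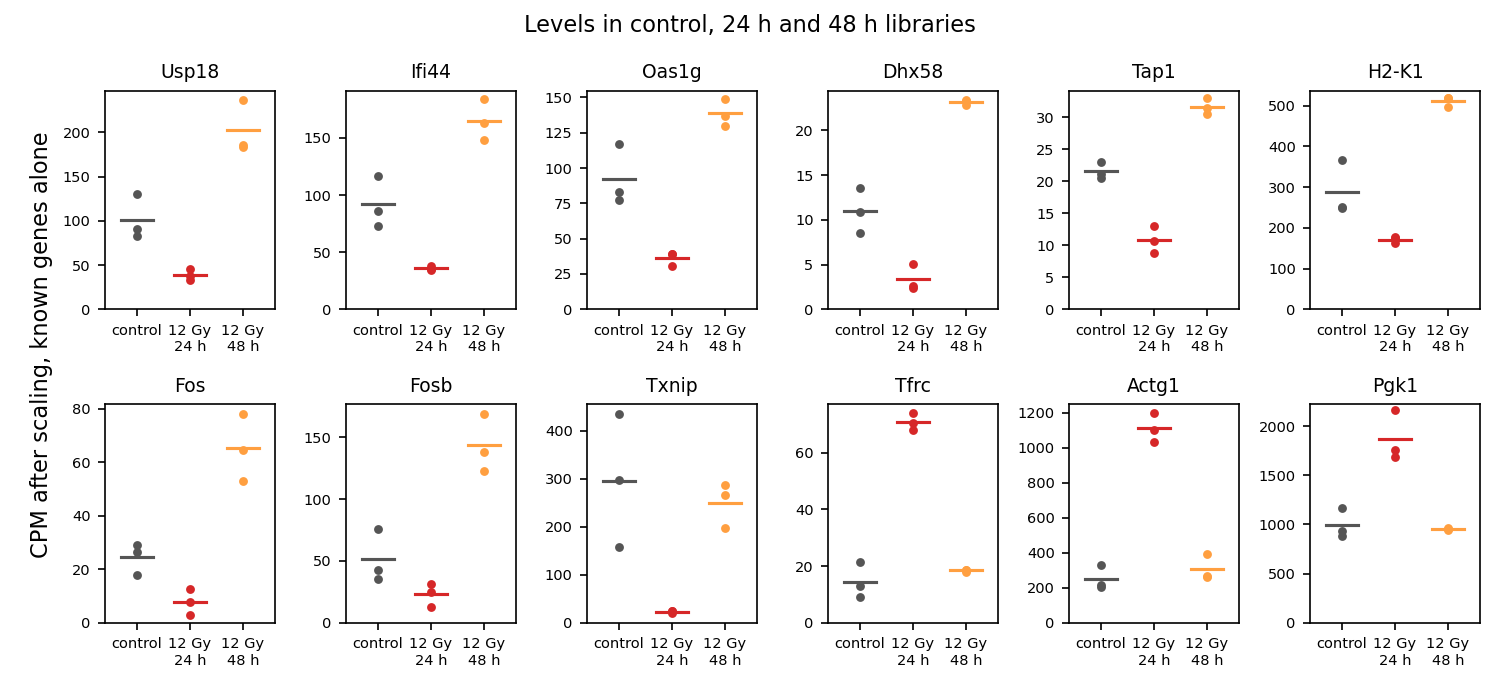
CPM after scaling with known genes alone (y axes, linear from 0) of 12 genes in control, 12 Gy at 24 h and 12 Gy at 48 h (x axes), each point a library and each bar the mean of 3. Usp18, H2-K1 and Fos are lowest at 24 h and highest at 48 h, while Txnip, Tfrc, Actg1 and Pgk1 are close to control at 48 h.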

How the data were processed

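Total RNA of MODE-K cells was sequenced. The deposited gene table holds counts per gene and library, whole numbers made by the authors and not normalized. The deposited CPM equal each count divided by its library total; no test used them. Per the submitters' processing notes, cutadapt 1.9 and FastQC were used. The aligner, the counter, the build and the strand were not given in the sources used here. Of 33636 lines, 11 were the overflow of long annotation cells and were left out. Symbols came from Ensembl identifiers (22022 of 22036 matched), and positions from GENCODE on GRCm38. A symbol with several gene models was kept for the model with the most reads.

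Counts of all 12 libraries were fitted with edgeR 4.0.16 (R 4.3.3): filterByExpr, TMM scaling, a quasi-likelihood model of 4 group means, two-sided tests and Benjamini-Hochberg adjustment over all loci tested, at 0.05. The fit was made for all loci and again for known genes alone, which were filtered, scaled and adjusted separately. The biological coefficients of variation were 0.1437 and 0.1248. The test was tested on simulated data. Printed CPM and single-gene values come from known genes alone.

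Named genes were those past 0.05 in the same direction in both fits, with groups that did not overlap and at least 5 CPM in the higher group: the 15 largest rises and falls, up to 4 members of each list in each direction, and Cdkn1a, Mdm2, Trp53, Txnip, Gsdme and Casp1. A few genes that meet it are left out of the text. List members outside this rule are given as examples chosen after their values were seen. The members and lists were chosen with earlier results of these data known, so the list counts are descriptions without a set test. Alternatives were DESeq2 1.42.0, RLE scaling, other filters, only the 6 libraries, a replicate block and leaving out each library. The deposited DESeq2 columns were not used.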

Additional observations from a re-analysis of the deposited data

Results flagged for a closer look

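For 11 named genes the effect of 12 Gy against control passed in opposite directions at 24 h and 48 h, and edgeR's test of the difference itself passed. The groups at both times share the same controls. Given as the log2 fold change at 24 h minus that at 48 h, the interferon-stimulated genes were Usp18 at -2.38 (adjusted p = 4.24e-07), Ifi44 at -2.21, Oas1g at -1.93 and Dhx58 at -2.76. The antigen presentation genes were Tap1 at -1.54, Tap2 at -1.17 and H2-K1 at -1.58. The AP-1 genes were Fosb at -2.63 and Fos at -3.05. Every one of these genes was lower than control at 24 h and higher at 48 h. Plaur, the urokinase receptor, at 0.99 and the ribosomal protein gene Rpl7 at 0.57 were higher at 24 h and lower at 48 h. The 24 h calls of Fos, Fosb and Rpl7 were lost without irradiated library 1, control 1 and irradiated library 2, in that order. With 3 libraries in each group, single outlying libraries were not tested for.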

How the results depend on the processing

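With known genes alone, 1674 genes passed (898 higher, 776 lower). Fitting only the 6 libraries gave 1107 (576 higher). Leaving out 1 library gave 1038 to 1843 in all, 577 to 1015 higher and 447 to 828 lower, with the lowest total without irradiated library 2 (1103 without control 3). Without a filter, 4342 loci were higher in the fit to all loci, against 2798. With all loci scaled together, higher members numbered 11 of the hypoxia list, 21 of NRF2 and 26 of actin, and lower members 4 of class I. Without 1 library, actin had 10 to 18 higher members, and interferon-stimulated genes 13 to 21 and class I genes 5 to 8 lower ones. The cause of these shifts was not tested. Where libraries were left out, their number was smaller as well. With the replicate number as a block, 1540 known genes passed (834 higher, 706 lower). Whether the numbers pair the samples is not settled. Same-number correlations of deviations were 0.107, -0.053 and 0.059, and not every library correlated best with its own number. With so few libraries these correlations depend on each other, so they cannot exclude pairing. Of 182 named genes that passed, 141 kept the call without each library in turn. That 0 changed direction follows from the naming rule, which asked for groups that did not overlap. Fitting only the 6 libraries lost 20 of 181 calls, DESeq2 14 of 181, the block 9 and RLE scaling 8. The library totals of 3776038 to 4831641 reads limit what can be seen for genes of few CPM.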
